A study of Mus musculus with 15 samples.

Results

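Notch receptors, their ligands and 2 modulators of the receptor were followed across 15 RNA sequencing libraries of mouse uterine epithelium. The members were chosen by name: the receptors Notch1, Notch2, Notch3 and Notch4, the ligands Jag1, Jag2, Dll1 and Dll4, the glycosyltransferase Lfng and the ubiquitin ligase Dtx1. They are 10 of 28269 genes listed in any deposited table. Libraries came from the epithelium facing the uterine lumen (luminal, LE) and from that of the glands (glandular, GE), all at day 4 and with 3 libraries in each of 5 groups. The groups were wild-type LE (WT LE), wild-type GE (WT GE), LE and GE of the Notch1-overexpressing animals titled E-OEX, and LE of the Notch1-overexpressing animals titled U-OEx. The labels spell out neither abbreviation and give no promoter, Cre driver, strain or age, and what day 4 is counted from is not stated. Nothing in the labels ties replicates to separate animals, so p-values measure the spread between these libraries, which may be technical.

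Notch receptors are cell-surface proteins that are activated by ligands of the Jagged and Delta-like families on a neighbouring cell. Cleavage by an ADAM protease and then by gamma-secretase frees the intracellular domain, which joins the DNA-binding protein RBPJ and a Mastermind coactivator and switches on target genes, among them the Hes and Hey repressors. Fringe enzymes such as Lfng add sugars to the receptor that alter its response to Delta-like and Jagged ligands, and Deltex proteins such as Dtx1 bind the receptor's intracellular domain. In blood vessels, Notch4, Dll4 and Dll1 are known from endothelial cells and Notch3 from mural cells.

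The tables list different genes. The 6414 genes of the wild-type tables and the 4903 of the E-OEX tables all differ by about 1 or more on the log2 scale between the GE and LE means, so they are selected lists, while the U-OEx tables list 27946 genes. Of the 10 members, 7 are listed for wild type, 6 for E-OEX and 10 for U-OEx. Notch4, Dll1, Dll4, Lfng and Dtx1 are listed in all 3 sets, and a member outside a list was not analysed there. Notch1 and Jag1 are listed for U-OEx alone, so the overexpressed gene could not be compared with wild type. The listed genes hold 1980800 to 4797424 reads per library in the wild-type and E-OEX libraries, which is not their full depth, and 13541644 to 14981505 in the U-OEx libraries.

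Some libraries carried RNA typical of other cells. The summed scaled counts of the 12 endothelial markers listed in all tables ranged from 5099 to 8009 in WT GE and from 6120 to 15826 in E-OEX GE, against 150 to 599 over the 9 LE libraries. For the 9 mural and smooth muscle markers the sums were 5327 to 8694 in WT GE, 18949 to 21199 in E-OEX GE and 18.3 to 390 in LE. The 7 stromal markers summed to 34326 to 101172 in WT GE, 76816 to 91040 in E-OEX GE and 369 to 7739 in LE. General epithelial markers, 3 of them, summed to 11431 to 12389 in WT GE, 15696 to 20910 in E-OEX GE and 27510 to 56941 in LE. Emcn, an endothelial gene, and Abcc9 and Rgs5, genes of pericytes, were at 0 in all 3 E-OEX LE libraries. The 4 luminal markers summed to between 31498 and 57877 in WT LE, 13135 and 17640 in E-OEX LE and 5398 and 7951 in U-OEx LE. The 7 gland markers summed to 49.7 to 102 in WT LE, 215 to 1321 in E-OEX LE and 1040 to 1441 in U-OEx LE. In GE they summed to 23799 to 32026 in wild type and 5886 to 9168 in E-OEX. In bulk RNA, fewer cells of a type and less RNA per cell cannot be told apart.

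In U-OEx luminal epithelium against wild type, Notch3, Dll1, Lfng and Dtx1 rose and Dll4 fell, 5 of the 7 members tested, while 56.9% of all 5949 genes tested passed the same limma threshold of 0.05 on the adjusted p (29.1% higher and 27.8% lower). That share of members is near the share of all genes, so the count says nothing particular about them. The 7 members had a median log2 difference of 2.02, against 0.09 over all genes tested. In E-OEX LE, 0 of 5 members passed against WT LE (limma), where 10.7% of 2600 genes did. In E-OEX GE, 0 of 5 passed against WT GE (limma), where 23.5% of 2851 genes did. The count at an unadjusted p under 0.05 was 1 member in E-OEX LE and 2 in E-OEX GE. By edgeR 0 members passed in either, and by DESeq2 0 in E-OEX LE and 1 in E-OEX GE. Between the overexpressing luminal epithelia, 2 of 6 members, Lfng and Dtx1, were higher in U-OEx LE than in E-OEX LE, beside 15.0% of 4275 genes (6.97% higher). The 3 LE comparisons share libraries, so their values are given side by side only.

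**Figure D1:**
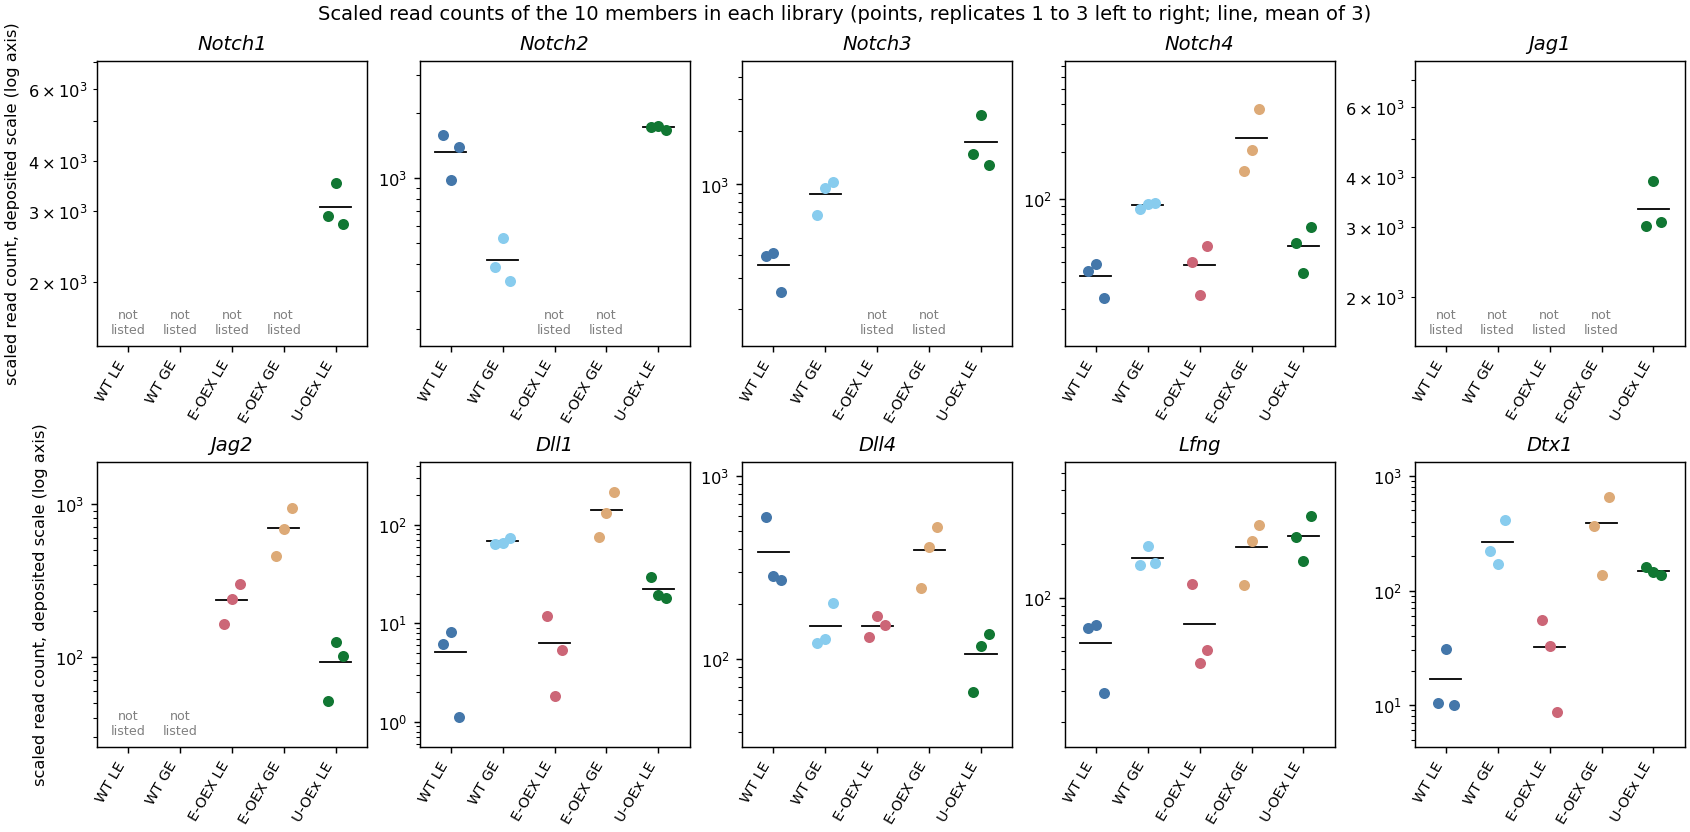
Scaled read counts of each member (log axis, deposited scale) in the 3 libraries of each group, with the group mean as a line. Dtx1 and Dll1 are low in WT LE and E-OEX LE, and Dll4 is highest in WT LE replicate 1 at 594. Scales of the 3 sets of tables may differ.

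Length-corrected levels could be set for all 10 members in U-OEx LE, as TPM, a transcript abundance corrected for exon length that sums to the same total in every library. Jag1, a Jagged ligand, led with 139 ± 28.2 TPM (SD, n = 3), above 95.9% of the 27131 genes with a known exon length. Among the receptors, Notch3 was at 52.6 ± 21.9 TPM, Notch1 at 52.4 ± 9.45 TPM, Notch2 at 38.4 ± 2.46 TPM and Notch4 at 1.51 ± 0.443 TPM (SD, n = 3 each). Notch3 overlapped both Notch1 and Notch2, and Notch4 lay below the other receptors in every library. Dll4 followed far below Jag1 at 6.74 ± 2.43 TPM, Jag2 at 3.24 ± 1.44 TPM and Dll1 at 1.27 ± 0.300 TPM. Neighbouring ligands from Dll4 to Jag2 overlapped, and Jag1 overlapped none. Lfng stood at 21.3 ± 5.62 TPM and Dtx1 at 6.73 ± 0.494 TPM, without overlap.

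**Figure D2:**
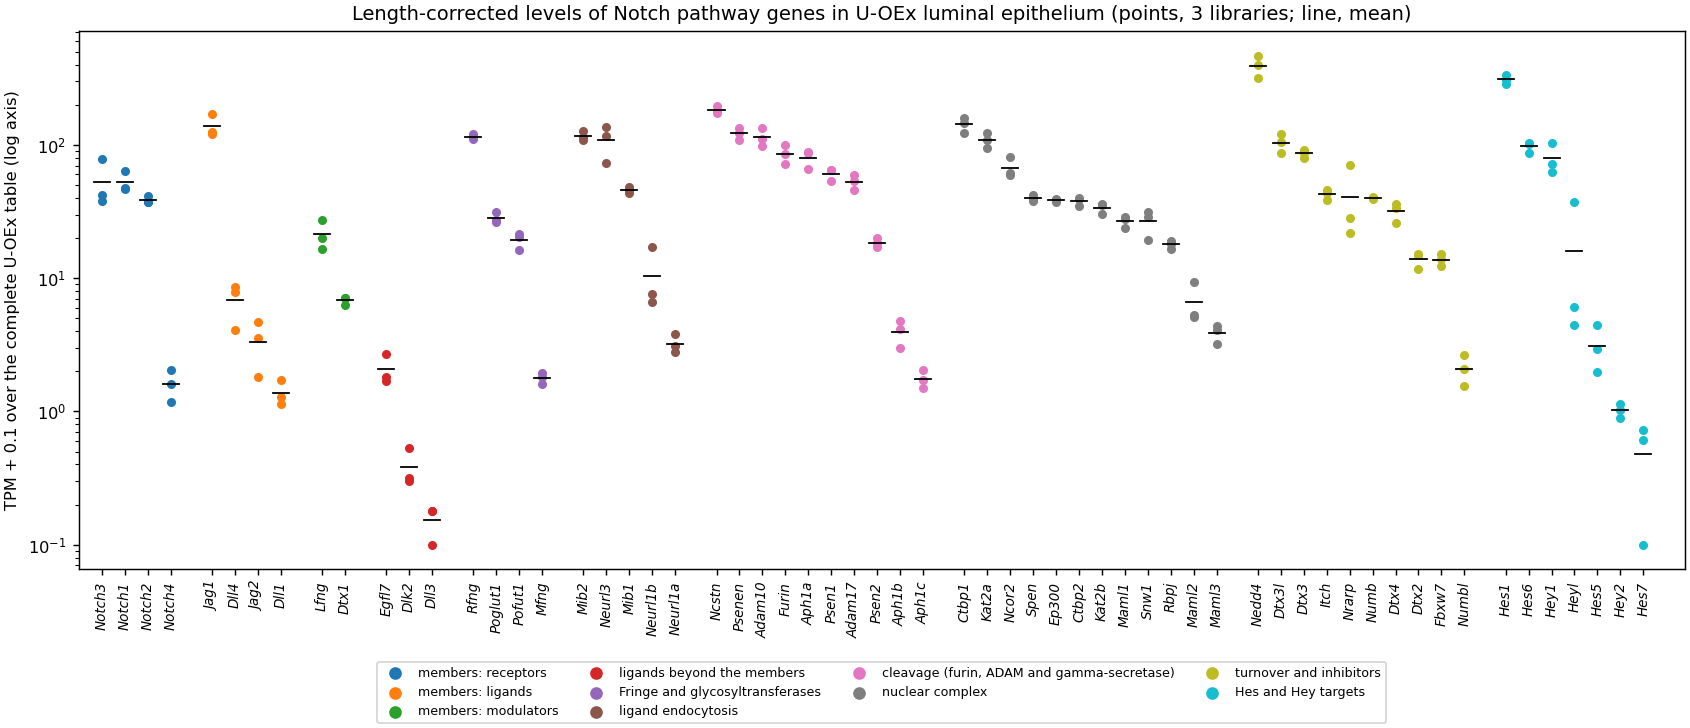
TPM plus 0.1 (log axis) of the members and of 51 other Notch pathway genes in the 3 U-OEx LE libraries, grouped by role, with the mean as a line. Jag1 at 139 TPM stands above the other 3 ligands, and Hes1 and Nedd4 reach 310 and 394 TPM.

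Promoters are shown for 4 of the members that moved against WT LE with U-OEx: Lfng, Dtx1 and Notch3 rose and Dll4 fell. Dll1 also rose, and its windows are counted below but not shown. Each run is the 250 bases before the RefSeq transcription start on GRCm38.p6, read on the gene's strand: chr5:140607091-140607340 (plus) for Lfng, chr5:120711670-120711919 (minus) for Dtx1, chr17:32166891-32167140 (minus) for Notch3 and chr2:119325534-119325783 (plus) for Dll4. Capitals mark 4 searched motifs on either strand: the RBPJ site CGTGGGAA, its core TGGGAA, the E-box CACGTG, and the class C site CACGCG bound by Hes and Hey proteins.
Lfng: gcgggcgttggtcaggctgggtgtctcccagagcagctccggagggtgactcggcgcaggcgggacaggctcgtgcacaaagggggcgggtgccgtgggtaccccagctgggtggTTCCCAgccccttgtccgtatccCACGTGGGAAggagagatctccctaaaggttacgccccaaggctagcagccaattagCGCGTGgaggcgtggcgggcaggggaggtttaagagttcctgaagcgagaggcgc
Dtx1: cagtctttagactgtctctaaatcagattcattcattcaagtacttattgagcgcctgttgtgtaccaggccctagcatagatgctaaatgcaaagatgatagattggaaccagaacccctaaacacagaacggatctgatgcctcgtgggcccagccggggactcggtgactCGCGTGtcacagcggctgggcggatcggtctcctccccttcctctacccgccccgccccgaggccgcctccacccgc
Notch3: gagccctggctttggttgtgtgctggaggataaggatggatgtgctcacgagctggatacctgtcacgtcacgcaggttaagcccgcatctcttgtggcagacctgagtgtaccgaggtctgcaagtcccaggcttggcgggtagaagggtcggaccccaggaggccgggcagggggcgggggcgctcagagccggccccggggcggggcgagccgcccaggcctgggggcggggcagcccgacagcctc
Dll4: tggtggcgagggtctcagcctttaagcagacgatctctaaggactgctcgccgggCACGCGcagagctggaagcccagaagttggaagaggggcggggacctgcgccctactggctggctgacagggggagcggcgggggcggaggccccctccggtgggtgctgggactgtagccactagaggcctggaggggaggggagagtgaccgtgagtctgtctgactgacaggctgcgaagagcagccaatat
The Lfng window held CGTGGGAA with its first base 110 bases before the start, overlapping the CACGTG that begins 112 bases before it. This RBPJ site occurs in 0.636% of the 32851 promoter windows of this length, and in 1 of the 11 windows of the 10 members. TGGGAA, which the longer site contains, occurs in 21.6% of all windows and in the same 1 member window, and CACGTG occurs in 6.02% and in that window. Class C letters occur in 7.62% of all windows and in 6 of the 11 member windows, those of Lfng, Dtx1, Dll4, Dll1, Jag1 and Notch2. The member windows were 56 to 87.2% G or C, against a median of 52.4% over all windows. The part of base content in these counts was not tested. No searched letters occur in the Notch3 window. A match describes letters only.

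Notch1 (ENSMUSG00000026923, chr2:26457903-26516663, minus strand, GRCm38), the receptor named as overexpressed, had scaled read counts of 2913, 3524 and 2789 in U-OEx LE replicates 1, 2 and 3. Their coefficient of variation was 12.8%, and replicate 2 was the highest.

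Notch2 (ENSMUSG00000027878, chr3:98013527-98150361, plus strand) had scaled read counts of 1586, 976 and 1394 in WT LE, 386, 528 and 334 in WT GE and 1727, 1738 and 1675 in U-OEx LE. U-OEx LE lay above WT LE without overlap on the deposited scale, while in the jointly rescaled pair the groups overlapped, and WT GE lay below both. U-OEx LE differed from WT LE by 0.38 on the log2 scale (SE 0.27, 95% interval -0.23 to 0.996, limma adjusted p = 0.246), which did not pass. It passed under quantile normalization, with a log2 difference of 0.85 (limma adjusted p = 0.00968).

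Notch3 (ENSMUSG00000038146, chr17:32120820-32166852, minus strand), a receptor known from vascular mural cells, was at 396, 413 and 249 scaled reads in WT LE and 671, 957 and 1031 in WT GE. Its U-OEx LE values were 1480, 2460 and 1282, above every wild-type library of either epithelium. In U-OEx LE against WT LE, Notch3 rose by 2.25 on the log2 scale (SE 0.34, limma adjusted p = 0.000747), with all 3 U-OEx libraries above all 3 WT LE libraries, and 63.8% of all genes tested did not overlap. Replicate 2 stood highest, and without it the difference was 2.05 (limma adjusted p = 0.00245). The 9 mural markers summed to 145, 176 and 109 in U-OEx LE replicates 1, 2 and 3, the same order as Notch3, and to 113, 390 and 132 in WT LE. Acta2, the smooth muscle actin, is among the 9 and made up most of the U-OEx LE sums, at 122, 149 and 73.0. In WT LE it was at 83.9, 83.0 and 27.9. Of the 9, 2 had a positive log2 difference and 2 passed as lower in limma. Their median was -0.99, against 0.09 over all genes tested. The part of mural cells in the Notch3 result was not tested.

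Notch4 (ENSMUSG00000015468, chr17:34564268-34588503, plus strand), a receptor known from endothelium, was at 35.2, 38.9 and 23.5 scaled reads in WT LE, 40.2, 24.5 and 50.7 in E-OEX LE and 52.4, 33.8 and 66.3 in U-OEx LE. These luminal groups overlapped. In GE it was at 86.6, 92.9 and 95.2 for wild type and at 151, 205 and 377 for E-OEX. The GE groups did not overlap, nor did those of 40.5% of all genes tested there. On jointly rescaled reads the E-OEX GE to WT GE difference was 0.84 on the log2 scale (SE 0.32, 95% interval 0.13 to 1.55, limma adjusted p = 0.0879), short of the threshold. DESeq2 gave an adjusted p of 0.0420, and leaving out E-OEX GE replicate 1 gave 0.0241 in limma. Differences in LE were 0.04 (SE 0.59, limma adjusted p = 0.976) for E-OEX and 0.58 (SE 0.45, limma adjusted p = 0.290) for U-OEx against WT LE, and neither passed.

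Endothelial sums ranked the libraries as Notch4 did in both E-OEX groups, but not in WT LE, WT GE or U-OEx LE. In replicates 1, 2 and 3 of WT GE the sums were 5852, 5099 and 8009 beside Notch4 at 86.6, 92.9 and 95.2. They were 250, 599 and 322 beside 35.2, 38.9 and 23.5 in WT LE. U-OEx LE had 380, 231 and 319 beside 52.4, 33.8 and 66.3, and E-OEX LE had 215, 150 and 359 beside 40.2, 24.5 and 50.7. In E-OEX GE, Notch4 and the endothelial sum were both lowest in replicate 1, at 151 and 6120, and both highest in replicate 3, at 377 and 15826. All 6 members listed for E-OEX were highest in that replicate. Between E-OEX GE and WT GE the 12 endothelial markers had a median log2 difference of 0.20 against 0.05 over all genes tested, and 3 of 9 mural markers, Myh11, Acta2 and Cnn1, were higher. Their part in the Notch4 values was not tested.

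**Figure D3:**
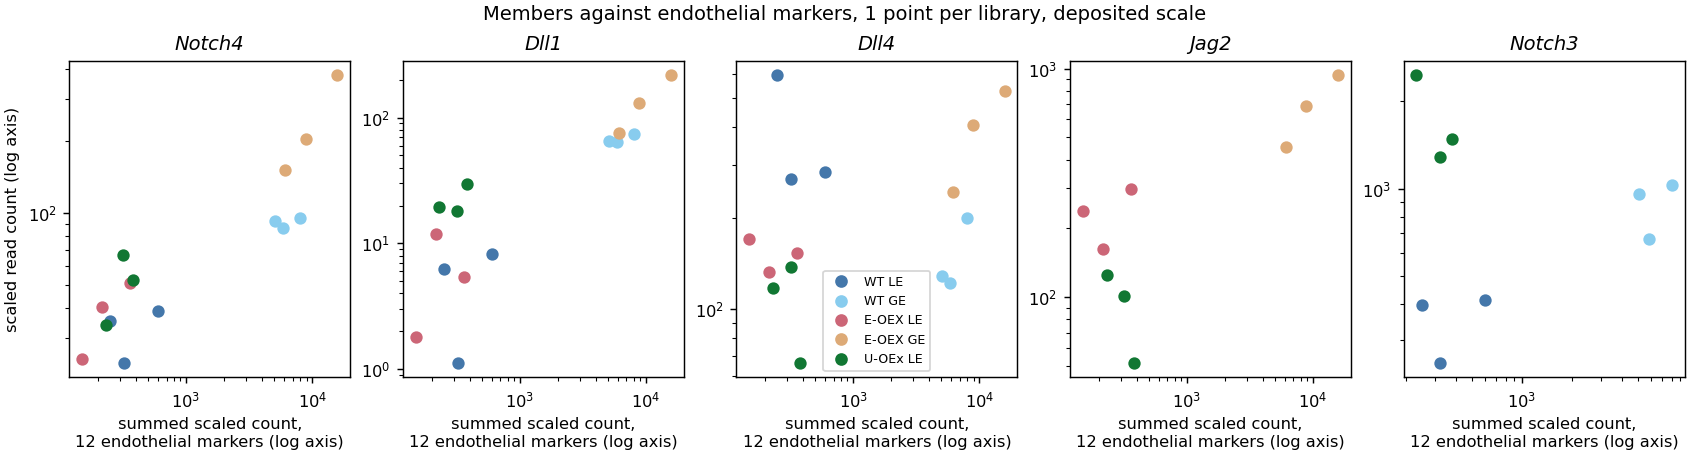
Scaled read count of 5 members (y, log axis) against the sum of 12 endothelial markers (x, log axis), 1 point per library on the deposited scale. Notch4, Dll1 and Jag2 reach their highest values, 377, 216 and 933, in the E-OEX GE library with the highest sum, while Dll4 is highest in a WT LE library with a sum of 250 and Notch3 in a U-OEx LE library with a sum of 231.

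Ligands differed in pattern from one another. Jag1 (ENSMUSG00000027276, chr2:137081456-137116644, minus strand) had scaled read counts of 3027, 3907 and 3085 in U-OEx LE, the set of tables that lists it. Jag2 (ENSMUSG00000002799, chr12:112907819-112929776, minus strand) was at 162, 238 and 298 in E-OEX LE, 453, 686 and 933 in E-OEX GE and 51.5, 124 and 101 in U-OEx LE. U-OEx LE lay below both E-OEX groups in every library. Jag2 differed between U-OEx LE and E-OEX LE by -1.51 on the log2 scale (SE 0.47, 95% interval -2.57 to -0.45), with a limma adjusted p of 0.0616 that did not pass. The groups did not overlap, as for 38.2% of all genes tested. DESeq2 gave an adjusted p of 0.0211.

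Dll1 (ENSMUSG00000014773, chr17:15367354-15376872, minus strand), a Delta-like ligand, was at 6.22, 8.19 and 1.12 scaled reads in WT LE and 11.9, 1.82 and 5.40 in E-OEX LE. In U-OEx LE it was at 29.4, 19.6 and 18.2. GE held more, with 64.2, 65.4 and 74.4 in wild type and 75.1, 131 and 216 in E-OEX. Luminal values rest on few reads, 15 in all of WT LE, 20 in E-OEX LE and 73 in U-OEx LE. Dll1 rose in U-OEx LE against WT LE by 2.12 on the log2 scale (SE 0.67, limma adjusted p = 0.0262). That call was lost without any of 4 libraries: WT LE replicate 3 (limma adjusted p = 0.0624) or U-OEx LE replicate 1 (0.0787), 2 (0.0513) or 3 (0.0516). Of 14 endothelial markers, 3 (Flt1, Pecam1 and Tek) were higher in the same comparison, with a median of -0.25 over the 14, and their part in the Dll1 result was not tested. Against E-OEX LE the difference was 1.81 (SE 0.65, limma adjusted p = 0.0895) and did not pass. The groups did not overlap, as for 38.2% of all genes tested there. In E-OEX GE against WT GE the Dll1 difference was 0.45 (SE 0.36, limma adjusted p = 0.421). These groups were apart on the deposited scale and overlapped on the jointly rescaled reads that were tested.

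Dll4 (ENSMUSG00000027314, chr2:119325784-119335962, plus strand), the Delta-like ligand known from arterial endothelium, had its highest library in wild-type LE. Its scaled read counts were 594, 284 and 269 in WT LE, above the 122, 129 and 201 of WT GE. The E-OEX order was the opposite, with 132, 171 and 153 in LE and 243, 408 and 527 in GE. U-OEx LE was low, at 66.2, 117 and 137. Luminal Dll4 fell in U-OEx against wild type by 1.82 on the log2 scale (SE 0.45, limma adjusted p = 0.00933), with no overlap, as for 63.8% of all genes tested. Of 5 luminal markers tested in that comparison, 4 were lower too, with a median of -4.70, and their part in the Dll4 result was not tested. In E-OEX LE the difference from WT LE was -1.40 (SE 0.51, 95% interval -2.53 to -0.27). There the groups did not overlap, as for 29.9% of genes tested, but the limma adjusted p of 0.110 did not pass. Over 15 alternatives its difference ranged from -1.64 to -0.99 with adjusted p from 0.0220 to 0.253, and it passed only in 1 fit over all 5 groups. Between U-OEx LE and E-OEX LE the difference was -0.69 (SE 0.41, limma adjusted p = 0.275).

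In GE, Dll4 in E-OEX differed from wild type by 0.88 on the log2 scale (SE 0.32, 95% interval 0.16 to 1.604, limma adjusted p = 0.0781), which did not pass on jointly rescaled reads, where the groups overlapped. On the deposited scale, where they did not overlap and where the median of all genes was 0.50, the difference was 1.35 and passed (limma adjusted p = 0.0200), as did Notch4 with 1.30 (0.0248). Without E-OEX GE replicate 1 Dll4 passed as well (1.13, limma adjusted p = 0.0183).

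The GE to LE difference of Dll4 had opposite signs in the genotypes. It was -1.28 in wild type and 1.30 in E-OEX, and the difference of the 2, the interaction, was 2.58 on the log2 scale (SE 0.59, 95% interval 1.31 to 3.85). Dll4 was the 1 of 5 members past limma's threshold, beside 10.7% of 2933 genes (5.83% with a positive interaction). Both lists hold only genes with about 1 or more between GE and LE on the log2 scale, so a listed gene with opposite signs, such as Dll4, has an interaction of about 2 or more through the selection. The interaction is therefore a description, like the GE to LE differences themselves. Over 20 alternatives it ranged from 2.21 to 2.89. Notch4 was at 1.09, Dll1 at 0.67, Dtx1 at -0.36 and Lfng at -0.15, against a median of 0.33 over all genes. Among markers of other cells, 1 of 12 endothelial (Cdh5), 4 of 9 mural and 1 of 7 stromal markers were past the threshold in the same interaction, all positive. So were 2 of 4 luminal markers, with a median of 2.98, and 1 of 3 general epithelial markers. Of 7 gland markers, 4 were past it and negative, with a median of -3.77. Endothelial sums were 250, 599 and 322 in WT LE replicates 1, 2 and 3, where Dll4 was at 594, 284 and 269. The part of these cells in the Dll4 result was not tested.

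**Figure D4:**
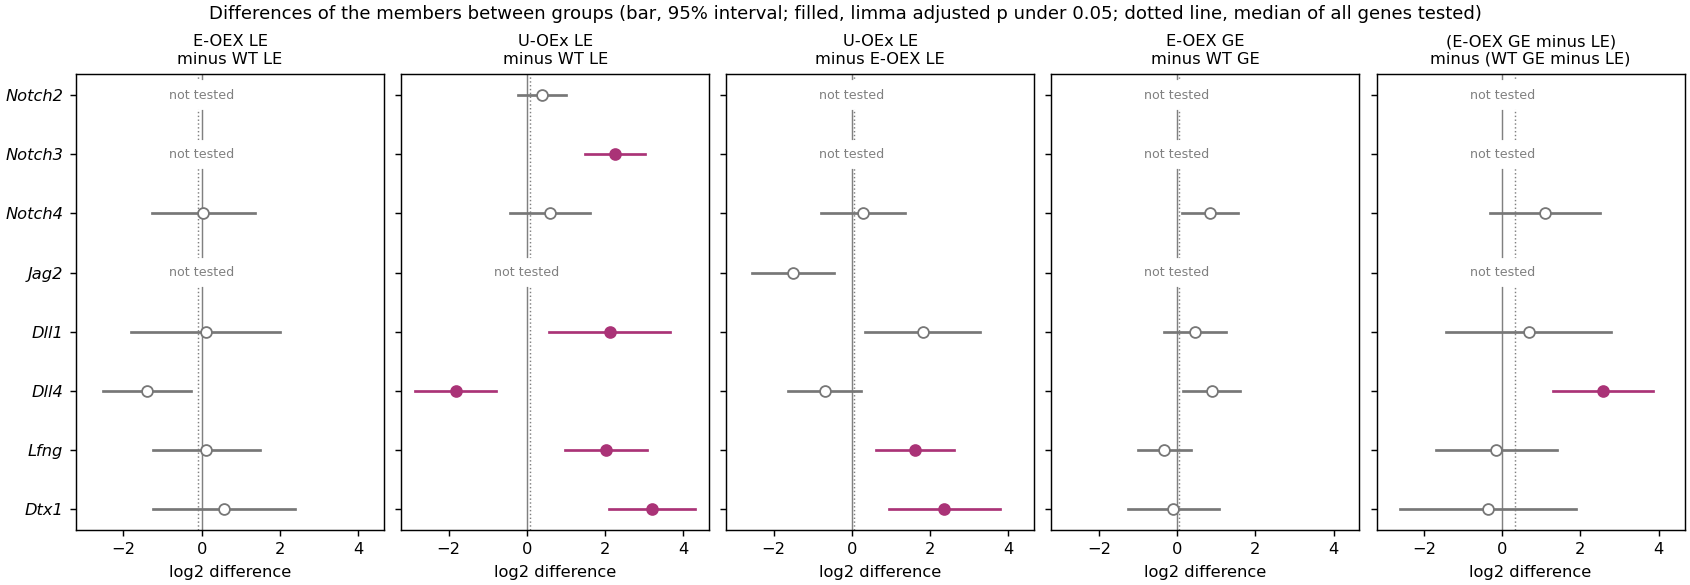
Log2 differences of the 8 members tested (points) with 95% intervals (bars) in 4 comparisons between genotypes and in the GE to LE interaction; filled points passed limma's adjusted p of 0.05 and the dotted line is the median of all genes. Dll4 is at -1.82 in U-OEx LE and 2.58 in the interaction, and no member is filled in E-OEX LE or E-OEX GE against wild type. The interaction is a description, since its genes were selected on the GE to LE difference.

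Both modulators rose in U-OEx LE. Lfng (ENSMUSG00000029570, chr5:140607320-140615545, plus strand), whose promoter holds the RBPJ letters shown above, was at 67.3, 70.7 and 29.1 scaled reads in WT LE and 119, 42.7 and 50.7 in E-OEX LE. U-OEx LE held 218, 160 and 288, above all 6 of these libraries. In GE it was at 152, 194 and 157 in wild type and 117, 208 and 255 in E-OEX, and the GE groups overlapped. Lfng rose in U-OEx LE by 2.02 on the log2 scale against WT LE (SE 0.45, limma adjusted p = 0.00594) and by 1.61 against E-OEX LE (SE 0.44, limma adjusted p = 0.0420). The E-OEX LE difference from WT LE was 0.12 (SE 0.61, 95% interval -1.25 to 1.49, limma adjusted p = 0.921). In E-OEX GE against WT GE it was -0.32 (SE 0.30, limma adjusted p = 0.499).

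Immune markers stood beside Lfng in the U-OEx libraries. Lfng was highest in replicate 3 and lowest in replicate 2, and so was Ptprc, the pan-leukocyte marker, at 1570, 441 and 2705 scaled reads in replicates 1, 2 and 3. Of 10 immune markers, 4 could be tested against WT LE and 3 were higher. Cd68, the immune marker listed in all tables, was at 293 to 462 in U-OEx LE and 219 to 278 in WT LE. Without U-OEx LE replicate 3 the Lfng difference was 1.88 (limma adjusted p = 0.0235). The part of immune cells in the Lfng result was not tested.

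Dtx1 (ENSMUSG00000029603, chr5:120680202-120711927, minus strand) was at 10.4, 30.7 and 10.1 scaled reads in WT LE and 55.7, 32.7 and 8.63 in E-OEX LE. U-OEx LE was even, at 161, 144 and 136, above all 6. GE libraries spread widely and overlapped, with 221, 172 and 410 in wild type and 370, 138 and 660 in E-OEX. Dtx1 rose in U-OEx LE by 3.20 on the log2 scale against WT LE (SE 0.48, limma adjusted p = 0.000765), the largest rise among the members tested there, and by 2.36 against E-OEX LE (SE 0.62, limma adjusted p = 0.0379). The differences from wild type were 0.57 in E-OEX LE (SE 0.81, limma adjusted p = 0.692) and -0.09 in E-OEX GE (SE 0.52, limma adjusted p = 0.928). The U-OEx LE to E-OEX LE calls of Lfng and Dtx1 were both lost in edgeR (adjusted p = 0.0658 and 0.0594) and when any U-OEx library or E-OEX LE replicate 2 was left out.

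Gland markers stood beside the rises of Notch3, Dll1, Lfng and Dtx1, members with higher counts in WT GE than in WT LE. Notch4 also had higher counts in WT GE, and its U-OEx LE difference from WT LE did not pass (0.58, limma adjusted p = 0.290). Foxa2, a transcription factor of gland epithelium, was at 677, 471 and 441 scaled reads in U-OEx LE, at 426, 41.8 and 52.9 in E-OEX LE and at 14.5, 4.10 and 12.3 in WT LE. It was at 1941 or more in every GE library. Of 7 gland markers tested between U-OEx LE and WT LE, 4 were higher and 1 lower, while Spink1 and Ttr were at 0 in all 3 U-OEx LE libraries. Their part in the member results was not tested.

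Within each set of tables, levels per kilobase of exon rank the listed members differently. The wild-type lists lack Notch1, Jag1 and Jag2, and the E-OEX lists lack Notch1, Notch2, Notch3 and Jag1, so these ranks leave them out. In WT LE, Notch2 (122 ± 28.9 scaled reads per kilobase) and Dll4 (99.2 ± 47.6) led, and Dtx1 (3.23 ± 2.25) and Dll1 (1.23 ± 0.865) were lowest (SD, n = 3 each). In WT GE, Notch3 led with 110 ± 23.6, followed by Lfng with 67.0 ± 9.21 and Dtx1 with 50.8 ± 23.9. Among the members listed for E-OEX, Dll4 had the highest mean in both groups, with 39.5 ± 4.99 in LE and 102 ± 37.0 in GE. Jag2 stood next to it with 33.4 ± 9.74 and 99.2 ± 34.5, and the values overlapped. Jag2 was above Dll4 in LE replicate 3 (42.8 against 39.8) and in GE replicate 1 (65.0 against 63.2).

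On a scale set jointly over the genes listed in all 3 sets, the order of the 5 groups could be given for 5 members. This rescaling assumes that most genes do not change, while these genes were listed for a GE to LE difference. Steps between GE and LE are therefore uncertain here. On the deposited scale, E-OEX GE and E-OEX LE did not overlap for Dll4 (243 to 527 against 132 to 171) or Jag2 (453 to 933 against 162 to 298). Dll4 ran from WT LE (500 ± 167 rescaled reads, SD, n = 3) through E-OEX GE (241), E-OEX LE (188) and U-OEx LE (140) to WT GE (125), and only WT LE was apart from its neighbour. Lfng was highest in U-OEx LE (290 ± 75.8), apart from WT GE (137), and its other neighbours overlapped. For Dtx1, E-OEX GE (240), WT GE (224) and U-OEx LE (193) overlapped in turn and were apart from E-OEX LE (42.7) and WT LE (24.4). Dll1 in U-OEx LE (29.4) was apart from both the GE groups above it and the luminal groups below. Notch4 in E-OEX GE (149 ± 61.7) was apart from WT GE (75.4), and the other 4 groups overlapped in turn. On scales set over the fewer groups that list them, Notch2 ran from U-OEx LE (1915) through WT LE (1335) to WT GE (403), Notch3 from U-OEx LE (1943) through WT GE (860) to WT LE (361), each step apart. Jag2 in E-OEX GE (472) overlapped E-OEX LE (310), and both were apart from U-OEx LE (111).

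Both shorter lists of genes were selected on the GE to LE difference, so that contrast describes the members and tests nothing. All 7 wild-type members passed, beside 97.0% of the listed genes (56.6% higher in GE, 40.5% lower), and none overlapped, as for 95.9% of genes. Dtx1 (3.98 on the log2 scale), Dll1 (3.73), Lfng (1.67), Notch4 (1.49) and Notch3 (1.34) were higher in GE, and Dll4 (-1.28) and Notch2 (-1.66) in LE. All 6 E-OEX members were higher in GE and passed, beside 91.6% of genes (61.5% higher), and 5 did not overlap, as for 89.9% of genes. The differences were Dll1 (4.401), Dtx1 (3.62), Notch4 (2.59), Jag2 (1.55), Lfng (1.52) and Dll4 (1.30). After rescaling with TMM, Jag2 (0.81), Lfng (0.79) and Dll4 (0.57) no longer passed.

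Another 53 pathway genes were followed in lists by role, and in E-OEX their calls in both epithelia were led by the Hey targets. Of 8 tested in E-OEX LE against WT LE, 2 passed, beside 10.7% of all genes tested. Both were Notch target repressors that rose: Hey1 by 3.83 (SE 0.62) and Heyl by 4.37 on the log2 scale (SE 0.71), each with a limma adjusted p of 0.00646. Heyl rests on few reads in WT LE, 11 in all, and its rise ranged from 3.58 to 5.06 over 15 alternatives. Endothelial and mural markers, of cells in which Hey1 and Heyl are also known, had medians of -1.30 and -1.70 in that comparison. Gland markers had a median of 1.41, with 1 of 7 called higher, and Hey1 and Heyl had higher counts in WT GE than in WT LE. The part of these cells in the Hey1 and Heyl results was not tested. In E-OEX GE, 3 of 8 rose, Hey2 by 3.31, Hey1 by 2.59 and Heyl by 1.04. Another 2 fell: Numbl, a relative of the Notch inhibitor Numb, by 1.40, and Psen2, a catalytic subunit of gamma-secretase, by 0.93. Of all genes tested there, 23.5% passed. Psen2 did not pass in 6 and Heyl in 7 of 15 alternatives. The 8 had a median log2 difference of 0.31 in E-OEX LE and 0.48 in E-OEX GE, against -0.09 and 0.05 over all genes tested. Between E-OEX GE and WT GE, mural markers had a median of 0.67, with 3 of 9 called higher, and endothelial markers 0.20. Gland markers had a median of -3.46 there, with 5 of 7 called lower. The part of these cells in the GE results was not tested.

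In U-OEx LE against WT LE, 6 of 16 pathway genes rose and 7 fell, beside 29.1% and 27.8% of all genes tested, with a median of 0.22 against 0.09 over all genes. Within a family, some genes rose and others fell. Rfng, a Fringe like Lfng, fell by 1.35 (SE 0.31, limma adjusted p = 0.00607), from 1874, 4891 and 2922 scaled reads in WT LE to 1232, 1179 and 1162, while Mfng rose by 1.36 (SE 0.49, limma adjusted p = 0.0437). Among Deltex genes, Dtx3 rose by 1.72 (limma adjusted p = 0.000747) and Dtx4 fell by 1.55 (0.0176). Of the Mastermind coactivators, Maml3 rose by 1.56 and Maml2 fell by 1.30. Even so, Rfng remained above Lfng per length in U-OEx LE, at 115 TPM against 21.3 TPM.

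Numb and Numbl, which restrain the receptor, both fell, by 1.53 (limma adjusted p = 0.000432) and 2.44 (0.000874). Fbxw7, which marks the receptor's intracellular domain for breakdown, fell by 0.65 (SE 0.22, limma adjusted p = 0.0365). Neurl1a, a ubiquitin ligase acting on ligands, rose by 3.49 (SE 0.67, limma adjusted p = 0.00267), from 2.07, 20.5 and 7.82 scaled reads to 84.5, 106 and 91.2. Among targets, Heyl rose by 5.45 and Hey1 by 3.65, and Hey2 fell by 3.63 (limma adjusted p = 0.000506, 0.000599 and 0.000167). Mfng did not pass in 12 of 15 alternatives, Fbxw7 in 7 of 14 and Dtx4 in 3 of 14.

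**Figure D5:**
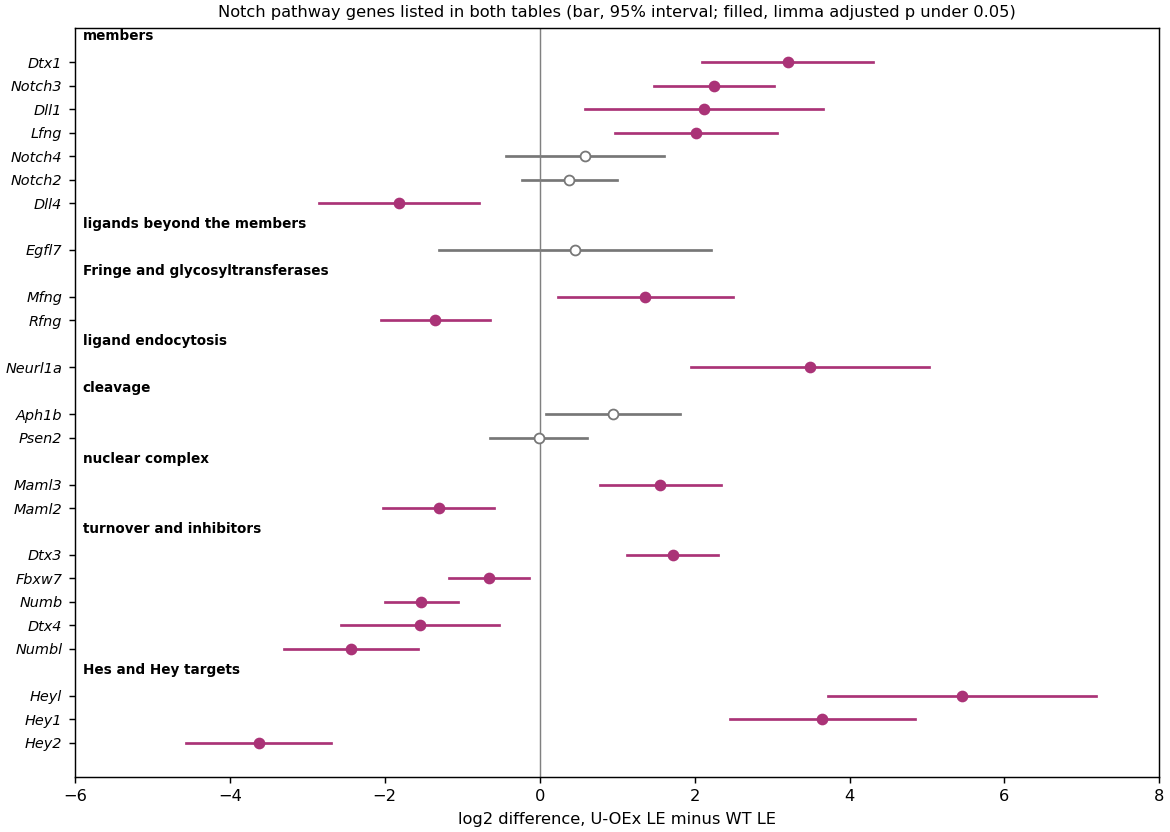
Log2 difference between U-OEx LE and WT LE (points, with 95% intervals) for the 7 members and the 16 other pathway genes tested, grouped by role; filled points passed limma's adjusted p of 0.05. Lfng and Mfng lie at 2.02 and 1.36 and Rfng at -1.35, and Heyl at 5.45 and Hey2 at -3.63 mark the ends.

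Of 12 pathway genes tested between U-OEx LE and E-OEX LE, 2 passed, a share near the 15.0% of all genes tested. Both were lower in U-OEx: Hey2 at -4.21 (SE 0.58, limma adjusted p = 0.00592) and Hes5 at -2.03 (SE 0.49, 0.0296). Hey2 was at 18.4, 18.7 and 15.4 scaled reads in U-OEx LE and at 265, 151 and 742 in E-OEX LE, and WT LE was at 276, 147 and 274. Hey1 (-0.47, limma adjusted p = 0.410) and Heyl (0.81, 0.538) did not pass.

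Libraries of the same group did not always rank the members alike. In U-OEx LE, replicate 2 was highest for 5 of the 10 members. Heyl, at 133, 748 and 93.2 scaled reads in replicates 1, 2 and 3, and Nrarp, a Notch target that limits the pathway, at 316, 719 and 234, were highest there too. In WT LE, replicate 2 was highest for 5 of 7 members and had the highest stromal marker sum, 7739 against 369 and 2473. Without it the Dtx1 rise in U-OEx LE was 3.67 and that of Lfng was 2.198, both still called. In E-OEX LE, Dll1, Lfng and Dtx1 were highest in replicate 1, where the gland marker Foxa2 was at 426 against 41.8 and 52.9 scaled reads. Its part in those values was not tested.

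The genes most like each member across libraries, by Pearson's r of log2 rescaled values, are given as a description, since group, library and depth are shared by all points. Over 15 libraries and 2357 genes, Dll1 was closest to Kif26a (0.96), Sele (0.96) and Stab1 (0.94). Sele and Stab1 are known from endothelial cells. Lfng was closest to Nrros (0.94), Gngt2 (0.93) and 6530402F18Rik (0.92), and Nrros is known from myeloid cells. For Dtx1 the closest were Ppic, S1pr4 and Ramp2 (0.93 each), and for Notch4 Igkv1-110 (0.91), 1810010D01Rik (0.90) and Grap (0.89). Dll4 had no close match, with Ppp1r14c (0.83), Slc5a3 (0.78) and Efhd1 (0.77). With fewer libraries, 9, Notch2 was closest to Diaph3 (0.995), Gm12592 (0.99) and Rab32 (0.99), and Notch3 to Pold2 (0.99), Nat8l (0.98) and Hsd17b14 (0.98). Jag2, also over 9, was closest to Fbxl21, Gja4 and Cd200 (0.98 each).

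Exons of 5 members overlap those of other annotated genes. Antisense genes share exon bases with Notch1, Notch3, Dll1 and Dll4, and Gm42820 shares 541 exon bases with Notch2 on the same strand. Whether counting used strand is not stated, so their reads cannot be told apart from the members' own. The partners listed in U-OEx were at means of 1.87 to 21.8 scaled reads. The partner of Dll1, A930024N18Rik, was at 1.87 against 22.4 ± 6.10 for Dll1, and that of Dll4, Gm14207, at 21.8 against 107 ± 36.7 for Dll4 (SD, n = 3).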

How the data were processed

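Total RNA of 15 libraries was sequenced after NEBNext Ultra library preparation, per the labels' protocols. The authors' deposited values are a signal per gene: read counts divided by 1 factor per library, as the values themselves show. The submitters' processing notes name GRCm38 and mm10; aligner, counter and scaling are not given in the sources used here. Dividing by each library's step gave whole reads (within 0.01) for 100% of values. No library repeated another. Members and lists were chosen with earlier results of these data known: all 10 members are named, and pathway genes where they passed between genotypes.

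The main test was limma (3.58.1, R 4.3.3) on log2(value + 1) for genes with a mean of at least 1, adjusted by Benjamini-Hochberg over all genes in each of 7 comparisons, threshold 0.05. Log2 differences on this scale understate changes of low genes. Between genotypes, recovered reads were rescaled together with TMM (edgeR 4.0.16), since how each set was scaled is not given; TMM assumes most shared genes do not change. GE to LE and the interaction used deposited values and are given as descriptions, since the lists were selected on GE to LE. Tests were run on simulated data in which most genes did not change and low genes were left out. That check does not cover low genes, comparisons in which most genes change, or fits on deposited values. Exon lengths and gene positions came from GENCODE M21, promoters from RefSeq GRCm38.p6, which held all 10 members. Alternatives were edgeR and DESeq2 (1.42.0) on reads, pseudocounts of 0.1 and 5, no filter, quantile normalization, the other scale, a replicate block, 1 fit over all 5 groups and leaving out each library.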

Additional observations from a re-analysis of the deposited data

Results flagged for a closer look

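The GE to LE contrast of Dll4 differed between E-OEX and wild type by 2.58 on the log2 scale (SE 0.59). For Hey2 this interaction was 3.30 (SE 0.76) and for Heyl -3.02 (SE 0.75). The genes were listed for a GE to LE difference of about 1 or more in each genotype, which alone gives Dll4 and Hey2, with opposite signs, an interaction of about 2 or more. These values are descriptions for that reason.

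Between U-OEx and E-OEX luminal epithelium, which share the Notch1 overexpression label, Dtx1 was higher in U-OEx by 2.36 (SE 0.62, limma adjusted p = 0.0379) and Lfng by 1.61 (SE 0.44, limma adjusted p = 0.0420). Hey2 was lower in U-OEx, at -4.21 (SE 0.58, limma adjusted p = 0.00592), and so was Hes5, at -2.03 (SE 0.49, limma adjusted p = 0.0296). Over the alternatives, Dtx1 did not pass in 6 of 15, Lfng in 7 of 15 and Hes5 in 5 of 14, while Hey2 passed in all 15.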

How the results depend on the processing

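Of 624 member differences under alternatives, 574 kept their direction and side of the threshold, 37 were no longer past it, 13 newly passed and 0 reversed while called. Of 36 group levels, 4 moved beyond 1 SD when scaled to the reads in listed genes (Notch4, Dll1 and Lfng in WT GE and Dll4 in E-OEX LE). Against 277 and 315 calls, DESeq2 moved the count of all genes to 453 in E-OEX LE against WT LE and to 501 in the interaction. The fit over all 5 groups, with 2819 genes, gave 616 genes and 1 member for E-OEX LE, 285 genes for E-OEX GE and 1274 for U-OEx LE, each against wild type. For E-OEX GE, 1 member passed by DESeq2 and 2 on the deposited scale, where 71.6% of called genes were higher against 41.3% on jointly rescaled reads; for luminal E-OEX libraries that share was 58.6% against 48.0%. In U-OEx LE against E-OEX LE, 1 member passed with a pseudocount of 0.1 and 0 by edgeR. In E-OEX GE against LE, 3 members passed by edgeR, DESeq2, quantile normalization and TMM each; quantile normalization lowered the higher share from 67.2% to 46.2%, and DESeq2 lowered it in WT from 58.3% to 47.5%. In the interaction the share was 54.3%, 66.9% by DESeq2 and 42.9% with quantile normalization.

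Leaving out 1 library gave 56 to 322 genes and 0 members in E-OEX LE against WT LE, 362 to 728 genes and 0 to 2 members in E-OEX GE against WT GE, 2757 to 3439 genes and 4 to 5 members in U-OEx LE against WT LE, and 60 to 904 genes and 0 to 4 members in U-OEx LE against E-OEX LE. It gave 5548 to 6108 genes and 6 to 7 members in WT GE against LE, 3387 to 4200 genes and 4 to 6 members in E-OEX GE against LE, and 179 to 449 genes and 1 member in the interaction. Counts of all genes moved by over 1.5 times without WT LE replicate 2 (117) or 3 (56) or E-OEX LE replicate 1 (76) or 2 (62) in E-OEX LE against WT LE, without WT GE replicate 1 (362) or 3 (430) in E-OEX GE against WT GE, and without E-OEX LE replicate 2 (340) or 3 (334) or U-OEx LE replicate 1 (60), 2 (353) or 3 (97) in U-OEx LE against E-OEX LE. In the interaction they did so without WT LE replicate 3 (192), WT GE replicate 1 (192), 2 (209) or 3 (179), or E-OEX GE replicate 2 (202) or 3 (202). The cause of these moves was not tested.

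The replicate number as a block made Dll4 pass in E-OEX GE (limma adjusted p = 0.0452; 1 member), took Lfng out of U-OEx LE against E-OEX LE (0.0506) and brought Jag2 in (0.0441). Same-numbered libraries share only a number: in no pair of groups were all 3 correlations of their deviations above 0.1. In WT GE and E-OEX GE they were 0.03, 0.09 and 0.25, each library correlating best with its own number.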

Other observations

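Other pathway genes also differed between the epithelia, in lists selected on that difference. In wild type, 11 of 16 were higher in GE and 5 in LE, beside 56.6% and 40.5% of all listed genes. Of 13 in E-OEX, 12 were called higher in GE and 0 in LE, beside 3017 and 1474 of 4903 listed genes. The 12 nuclear complex genes were listed for U-OEx, where all were above 1 TPM, with a median of 35.9 TPM. The 10 cleavage genes were all above 1 TPM as well, with a median of 70.5 TPM.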
